A study of Mus musculus with 2 samples.

Results

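The 8 immature neuron genes described here are Dcx, Sox11, Sox4, Igfbpl1, Cd24a, Draxin, Stmn2 and Tubb3, chosen by name from the 32285 genes of an RNA count matrix. The tissue was brain at E18.5 from C57BL/6 mice homozygous for CTCF-R567W, a mutation introduced by CRISPR/Cas9 editing, and it was read by SPARC-seq, which records RNA and open chromatin under shared barcodes. One library of RNA (n = 1) and one of accessibility (n = 1) were used, and the number of embryos behind them is not given in the sources used here. Wild-type tissue was not analysed here, so nothing below measures the mutation, and without replicates no test between groups was made. Intervals are at 95% and reflect counting error alone.

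Dcx and Tubb3 encode proteins of the microtubules of young neurons, doublecortin and class III beta-tubulin, and Stmn2 encodes stathmin-2, which binds tubulin in growing axons. Sox11 and Sox4 encode the closely related SoxC transcription factors, which are switched on as neural precursors leave the cell cycle and help to start neuronal gene expression. Igfbpl1 encodes a secreted protein related to the insulin-like growth factor binding proteins, Cd24a a glycan-rich protein anchored at the cell surface, and Draxin a secreted axon guidance cue. In the embryonic brain these genes are widely used as marks of newborn and differentiating neurons, though not all are confined to them: Sox4 and Sox11 are also found in progenitors, and Cd24a in epithelial and ependymal cells.

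A barcode was built of 2 segments of 8 bases, and the 50 segment sequences pair into a grid of 2500 positions. The positions are called spots here, as they can hold several cells. Spots that share the second segment are called a strip. That strips are neighbouring tissue is inferred from the barcodes, since no map was used. The filter on genes and mitochondrial RNA left 1992 spots with 8711132 UMIs and 46993860 fragments, a median of 4157 UMIs and 21705 fragments per spot. The 44 strips with at least 20 spots held 1957 of them. A list of 12 skeletal muscle genes set 6 strips apart, with 10776 to 15661 CPM (the UMI count scaled to a library total of 1000000) against 3195 to 5514 in the other 38. These are called muscle-rich and muscle-poor strips. In the muscle-rich strips the lists of epithelial genes (229 to 1666 CPM, against 78.5 to 232.8) and connective tissue genes (2201 to 5485, against 621.4 to 3309) were also higher or reached higher. By these levels, the tissue labelled as brain also held RNA of genes listed for muscle, epithelium and connective tissue. Which cells that RNA came from was not tested. The muscle-rich strips were deeper in chromatin, with a median of 37976 fragments per spot against 20624, and 54.9% against 46.0% of their fragments were shorter than 150 bp. Among the muscle-poor strips, 3 carried 1936 to 2723 CPM of a list of 10 pituitary genes, against 111.4 to 211.6 in the other 35. Whether fewer neurons or less RNA per neuron lowers a level cannot be told apart in such spots, and the part of depth or of other tissue in the differences below was not tested beyond the values given.

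The promoter window of a gene reached 1 kb upstream and 1 kb downstream of its transcription start. The 250 bases before the RefSeq start (GRCm38.p6) are shown for the 5 genes found in the promoter table, since the contrast between the Sox11, Sox4 and Tubb3 promoters is the main accessibility result. They lie at chr12:27342719-27342968 (minus strand), chr13:28953700-28953949 (minus), chr8:123411303-123411552 (plus), chrX:143933220-143933469 (minus) and chr4:148130699-148130948 (minus). Capitals mark exact matches, on either strand. The letters searched were TATAA, from the box of that kind near many starts, then CCAAT, which the factor NF-Y is known to bind. GGGCGG, bound by Sp1, was the next. CAGCTG, one form of the element read by proneural factors, was the fourth. ACAAAG, a core read by SOX proteins, was the last, and matches of different motifs did not overlap.
Sox11: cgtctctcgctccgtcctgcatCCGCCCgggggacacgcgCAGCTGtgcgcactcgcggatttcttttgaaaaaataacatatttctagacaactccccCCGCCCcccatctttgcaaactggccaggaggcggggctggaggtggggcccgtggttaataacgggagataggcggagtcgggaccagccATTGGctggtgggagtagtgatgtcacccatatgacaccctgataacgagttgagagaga
Sox4: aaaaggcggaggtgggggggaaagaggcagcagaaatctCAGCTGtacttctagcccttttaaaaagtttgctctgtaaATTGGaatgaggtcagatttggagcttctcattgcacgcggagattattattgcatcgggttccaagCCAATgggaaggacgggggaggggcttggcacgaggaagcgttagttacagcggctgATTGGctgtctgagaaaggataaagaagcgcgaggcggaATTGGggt
Tubb3: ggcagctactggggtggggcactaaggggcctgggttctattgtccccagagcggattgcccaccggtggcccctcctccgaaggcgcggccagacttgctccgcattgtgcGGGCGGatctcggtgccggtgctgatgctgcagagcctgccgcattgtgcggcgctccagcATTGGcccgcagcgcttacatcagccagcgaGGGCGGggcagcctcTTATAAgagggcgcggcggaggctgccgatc
Dcx: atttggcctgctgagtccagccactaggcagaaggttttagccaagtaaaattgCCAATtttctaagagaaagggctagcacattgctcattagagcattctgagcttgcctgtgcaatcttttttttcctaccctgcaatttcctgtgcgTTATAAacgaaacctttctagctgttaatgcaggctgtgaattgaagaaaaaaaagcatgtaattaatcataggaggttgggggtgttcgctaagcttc
Draxin: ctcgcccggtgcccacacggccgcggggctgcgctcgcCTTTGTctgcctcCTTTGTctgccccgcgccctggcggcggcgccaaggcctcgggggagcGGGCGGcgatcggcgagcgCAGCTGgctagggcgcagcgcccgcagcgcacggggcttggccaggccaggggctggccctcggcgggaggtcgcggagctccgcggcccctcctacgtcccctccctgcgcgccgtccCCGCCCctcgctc

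The Tubb3 stretch was rich in G and C (68.0%, 21 CpG) and held a TTATAA 31 bases before the start, which counts as TATAA on both strands, together with 2 GGGCGG matches and 1 CCAAT match. The Sox11 stretch was 58.0% G and C with 17 CpG and held 2 matches of GGGCGG, 1 of CAGCTG and 1 of CCAAT. The Sox4 stretch was 50.8% G and C with 11 CpG and held 4 matches of CCAAT and 1 of CAGCTG. The Dcx stretch was the poorest in G and C (41.6%, 3 CpG), with 1 CCAAT and a TTATAA 99 bases before the start. The Draxin stretch was the richest (79.6%, 36 CpG), with 2 matches each of ACAAAG and GGGCGG and 1 of CAGCTG. Over 32851 promoter stretches of this length the median was 52.4% G and C with 6 CpG, and TATAA was found in 22.8%, CCAAT in 33.9%, GGGCGG in 32.7%, CAGCTG in 13.0% and ACAAAG in 16.5%. A match of letters is a description of the window and not a binding site. The RefSeq starts of Sox11 and Tubb3 lay 144 bp upstream and 129 bp downstream of the starts used for counting, and those of Sox4, Dcx and Draxin were 14, 92 and 0 bp downstream. The table holds another Dcx start 187 bp downstream of that used for counting, whose stretch overlaps the one printed, has 44.8% G and C, 18 fragments and an ACAAAG 8 bases before the start, and is not printed. Fragments over the printed stretches numbered 367 for Sox11, 362 for Sox4, 345 for Tubb3, 77 for Draxin and 14 for Dcx.

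All 8 genes were well measured in RNA, and they differed widely in promoter accessibility. Gene positions are those of mm10 (GRCm38). Sox11 (ENSMUSG00000063632, chr12:27334264-27342574) had the most UMIs, 7468, or 857.3 CPM (838.0 to 877.0). Its relative Sox4 (ENSMUSG00000076431, chr13:28948919-28953713) had 3473, or 398.7 CPM (385.5 to 412.2). Stmn2 (ENSMUSG00000027500, chr3:8509360-8561606) had 5232 UMIs, or 600.6 CPM (584.4 to 617.1). Dcx (ENSMUSG00000031285, chrX:143855842-143933311) had 4780, or 548.7 CPM (533.3 to 564.5), and Tubb3 (ENSMUSG00000062380, chr8:123411424-123422015) had 4505, or 517.2 CPM (502.2 to 532.5). Their intervals did not overlap, so the order of these 3 cytoskeletal genes in UMIs exceeded counting error.

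The secreted and surface proteins were lower in UMIs. Igfbpl1 (ENSMUSG00000035551, chr4:45809468-45826923) had 1866 UMIs, or 214.2 CPM (204.6 to 224.2). Cd24a (ENSMUSG00000047139, chr10:43578284-43584265) had 1352, or 155.2 CPM (147.0 to 163.7). Draxin (ENSMUSG00000029005, chr4:148098437-148130698) had 682, or 78.3 CPM (72.5 to 84.4). The 8 genes together took 29358 UMIs, 0.337% of all. Per kb of annotated exon the order changed, from 2412 UMIs per kb for Tubb3 through 934.0 for Stmn2, 898.6 for Sox11, 724.3 for Sox4, 574.2 for Igfbpl1, 524.0 for Cd24a and 378.0 for Dcx to 131.2 for Draxin. UMIs of a tagged transcript need not grow with its length, so neither order is a measured order of molecules.

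Promoter fragments did not follow the RNA order. Sox11 had 763 promoter fragments (95% interval 709.8 to 819.1) and Sox4 had 595 (548.1 to 644.8), placing them at percentiles 96.2 and 92.6 of protein-coding genes. Tubb3 had 468 (426.6 to 512.4), Cd24a 365 (328.5 to 404.4) and Stmn2 307 (273.6 to 343.3). Draxin had 226 (197.5 to 257.5), but the start of Mad2l2, a gene on the opposite strand, falls within the same window, so that its fragments cannot be assigned to either gene. Mad2l2 also overlaps Draxin in the annotation, and whether the RNA counting used strand is not given in the sources used here. Igfbpl1 had 91 (73.3 to 111.7) and Dcx 69 (53.7 to 87.3), at percentiles 37.0 and 31.1. Dcx was thus at percentile 99.2 of coding genes in UMIs and below the middle in promoter fragments. Both Dcx and Igfbpl1 fell under the minimum of 100 fragments, which left 6 of 8 genes for the counts of called promoters, while all 8 passed the minimum of 100 UMIs.

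The peaks of the deposited matrix gave the same picture of Dcx. None of its 4 peaks within 10 kb of the gene covered the start, and all 4 lay inside the gene. Cd24a also had no peak at its start, and its 2 peaks had 274 cut sites in all. The start used for Cd24a lay 885 bp inside the annotated gene, whereas for the other 7 it was the annotated 5′ end. No peak covered the annotated 5′ end of Cd24a either, and a window there held 304 fragments, with a ratio of 0.970 (0.746 to 1.27). The fragment ends of Cd24a were spread over the window, with at most 39 of 707 in one 50 bp bin. A peak covered the start of each of the other 6 genes, with 1027 cut sites at Sox11, 969 at Sox4, 762 at Tubb3, 446 at Stmn2, 202 at Draxin and 135 at Igfbpl1. The densest 50 bp bin of Sox11 lay 150 to 200 bp upstream of the start used for counting, whereas that of Tubb3 and of Sox4 began at the start itself.

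Summed RNA of the 8 genes was lower in muscle-rich strips, and 37 of 38 muscle-poor strips lay above all 6 of them. The summed level ran from 2022 to 2639 CPM in the 6 muscle-rich strips, with a median of 2369, and from 2381 to 4836 in the muscle-poor strips, with a median of 3529. The 3 pituitary-rich strips were at 2381, 2706 and 2841, and the other 35 at 3135 to 4836. Muscle-rich and pituitary-rich strips therefore overlapped each other, and neither overlapped the remaining strips. The muscle-poor over muscle-rich ratio of the sum was 1.54 (1.49 to 1.60).

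**Figure D1:**
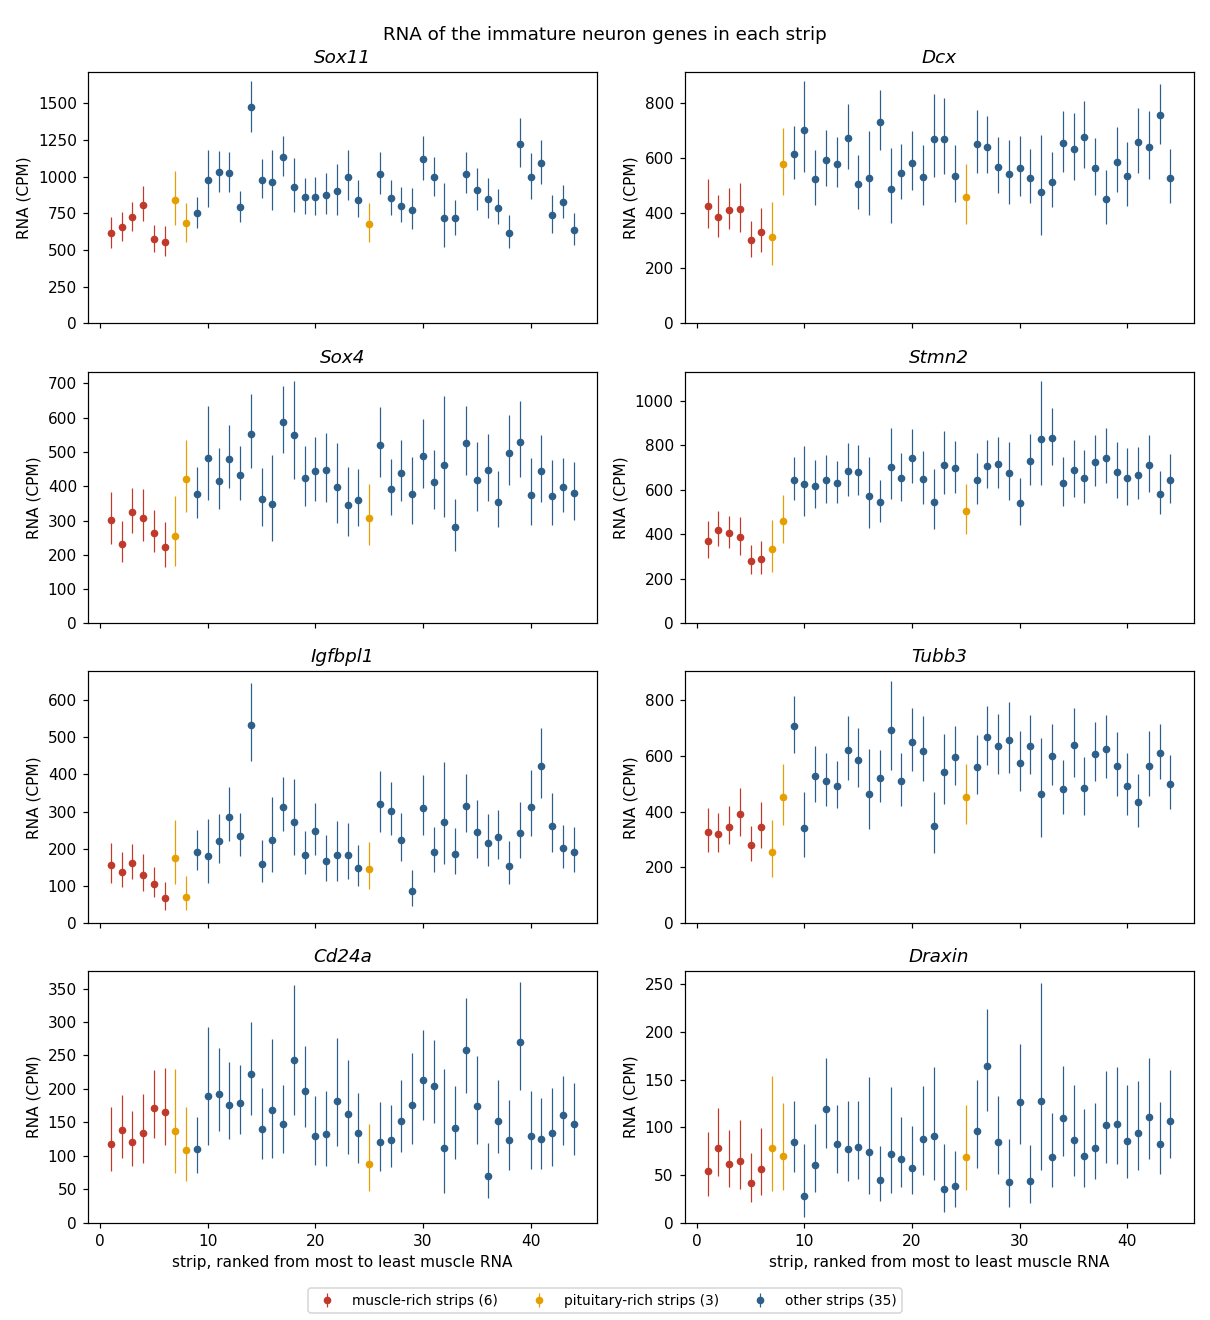
RNA level (CPM, linear axis from 0) of each gene in each of 44 strips, ranked from most to least muscle RNA, with 95% Poisson intervals of the counts as bars. Stmn2 ran from 281.3 to 419.5 in the 6 muscle-rich strips and from 331.8 to 834.3 in the other 38, while Cd24a overlapped throughout.

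The RNA ratios of Stmn2, Tubb3 and Igfbpl1 were 1.67 to 1.83, and that of Dcx was 1.55. The Dcx ratio did not differ beyond counting error from that of Sox4, with a quotient of 1.01 (0.879 to 1.15). Nor did it from that of Tubb3, at 0.93 (0.82 to 1.05), or Igfbpl1, at 0.85 (0.71 to 1.01). Over that of Stmn2 it was 0.86 (0.75 to 0.97). Stmn2 measured 281.3, 289.4, 369.2, 386.9, 405.6 and 419.5 CPM in the muscle-rich strips and 331.8 to 834.3 in the muscle-poor strips, with a median of 651.9. Of the muscle-poor strips, 37 of 38 lay above every muscle-rich strip, and the exception was pituitary-rich. The ratio was 1.81 (1.66 to 1.98). Tubb3 measured 281.3 to 391.5 CPM in muscle-rich and 253.8 to 707.8 in muscle-poor strips, with medians of 337.3 and 562.9 and a ratio of 1.67 (1.53 to 1.84). Dcx measured 302.3 to 428.4 and 312.3 to 755.8, with medians of 399.0 and 574.4 and a ratio of 1.55 (1.42 to 1.70). Igfbpl1 had the widest relative range, from 66.4 to 160.3 in muscle-rich and from 70.1 to 532.7 in muscle-poor strips, with medians of 133.8 and 221.1 and a ratio of 1.83 (1.58 to 2.14).

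The SoxC genes had RNA ratios whose quotient, Sox4 over Sox11, was 1.12 (0.991 to 1.27). Sox4 measured 223.0 to 323.8 CPM in muscle-rich and 253.8 to 588.8 in muscle-poor strips, a ratio of 1.54 (1.39 to 1.71). Sox11 measured 555.2 to 810.5 and 616.5 to 1474, a ratio of 1.38 (1.29 to 1.47), and 26 of 38 muscle-poor strips lay above all muscle-rich ones. The guidance cue Draxin had a ratio of 1.38 (1.10 to 1.74), with 42.2 to 78.7 against 28.4 to 164.8. For Cd24a no difference was detectable at this depth, with 118.5 to 172.3 against 70.0 to 270.4 and a ratio of 1.12 (0.967 to 1.30). In all, 5 of 8 genes were at least 1.5-fold higher in muscle-poor strips, against 6.98% of 10653 genes tested, and none was 1.5-fold lower, against 8.95%. With 4 muscle-rich strips in place of 6 it was 3 of 8, against 7.5% of genes, as Dcx was then at 1.39 and Sox4 at 1.42. With 8, a setting that takes pituitary-rich strips into the muscle-rich group, it was 4, without Sox4, against 5.9%. The median ratio was 1.54 for the 8 genes and 1.03 for all genes tested. The muscle-rich range lay wholly below the muscle-poor range for 0 of 8 genes, against 0.131% of all genes.

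Promoter accessibility separated Stmn2 and Tubb3 from the SoxC genes. Tubb3 measured 15.6, 15.8, 17.3, 20.6, 21.9 and 43.7 promoter CPM (fragments in the window, scaled to a total of 1000000 fragments over all promoters) in the muscle-rich strips and 38.1 to 162.7 in the muscle-poor strips, with a median of 94.8. Thus 36 of 38 muscle-poor strips lay above every muscle-rich strip. The ratio was 4.07 (2.88 to 5.92), from 431 and 35 fragments. Stmn2 measured 3.36, 6.90, 12.3, 16.5, 25 and 36.8 in muscle-rich and 14.7 to 173.9 in muscle-poor strips, with a median of 59.7 and a ratio of 3.87 (2.55 to 6.14), from 281 and 24 fragments. For Stmn2, 29 of 38 muscle-poor strips lay above all muscle-rich ones. With a window of 2 kb on each side the Stmn2 ratio was 1.88 (1.47 to 2.45).

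The Sox11 promoter measured 78.8 to 117.3 in muscle-rich and 80.9 to 209.4 in muscle-poor strips, a ratio of 1.32 (1.10 to 1.58). The Sox4 promoter measured 76.8 to 90.6 and 42.9 to 174.0, a ratio of 1.19 (0.974 to 1.45), and the Cd24a promoter had a ratio of 1.19 (0.923 to 1.54). Neither window differed from 1 beyond counting error. The peak over the Sox4 start, in cut sites, had a ratio of 1.25 (1.07 to 1.47). Neither Cd24a peak covered its start, and both were higher in muscle-poor strips. The Cd24a peak upstream of the gene had a ratio of 1.874 (1.113 to 3.345), from 99 and 17 cut sites. The peak inside Cd24a had 1.561 (1.026 to 2.459), from 131 and 27 cut sites. Both ends of a fragment can count as cut sites, so the intervals of peaks, here and below, are too narrow. The Draxin window, shared with Mad2l2, had a ratio of 1.72 (1.20 to 2.53). In cut sites, the peak over the Draxin start had 1.39 (0.971 to 2.03), and the peak 0.91 kb upstream had 2.69 (1.54 to 5.07). The fewer fragments of Igfbpl1 gave 2.37 (1.26 to 4.95) and those of Dcx 1.42 (0.769 to 2.84). Of the 6 promoters that passed the minimum, 3 were at least 1.5-fold higher in muscle-poor strips, against 11.5% of 15983 promoters, and none was 1.5-fold lower, against 10.4%. Of the 3, Draxin was at 1.48 (0.969 to 2.34) with a window of 500 bp. The median ratio was 1.52 for these 6 and 1.0 for all promoters.

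**Figure D2:**
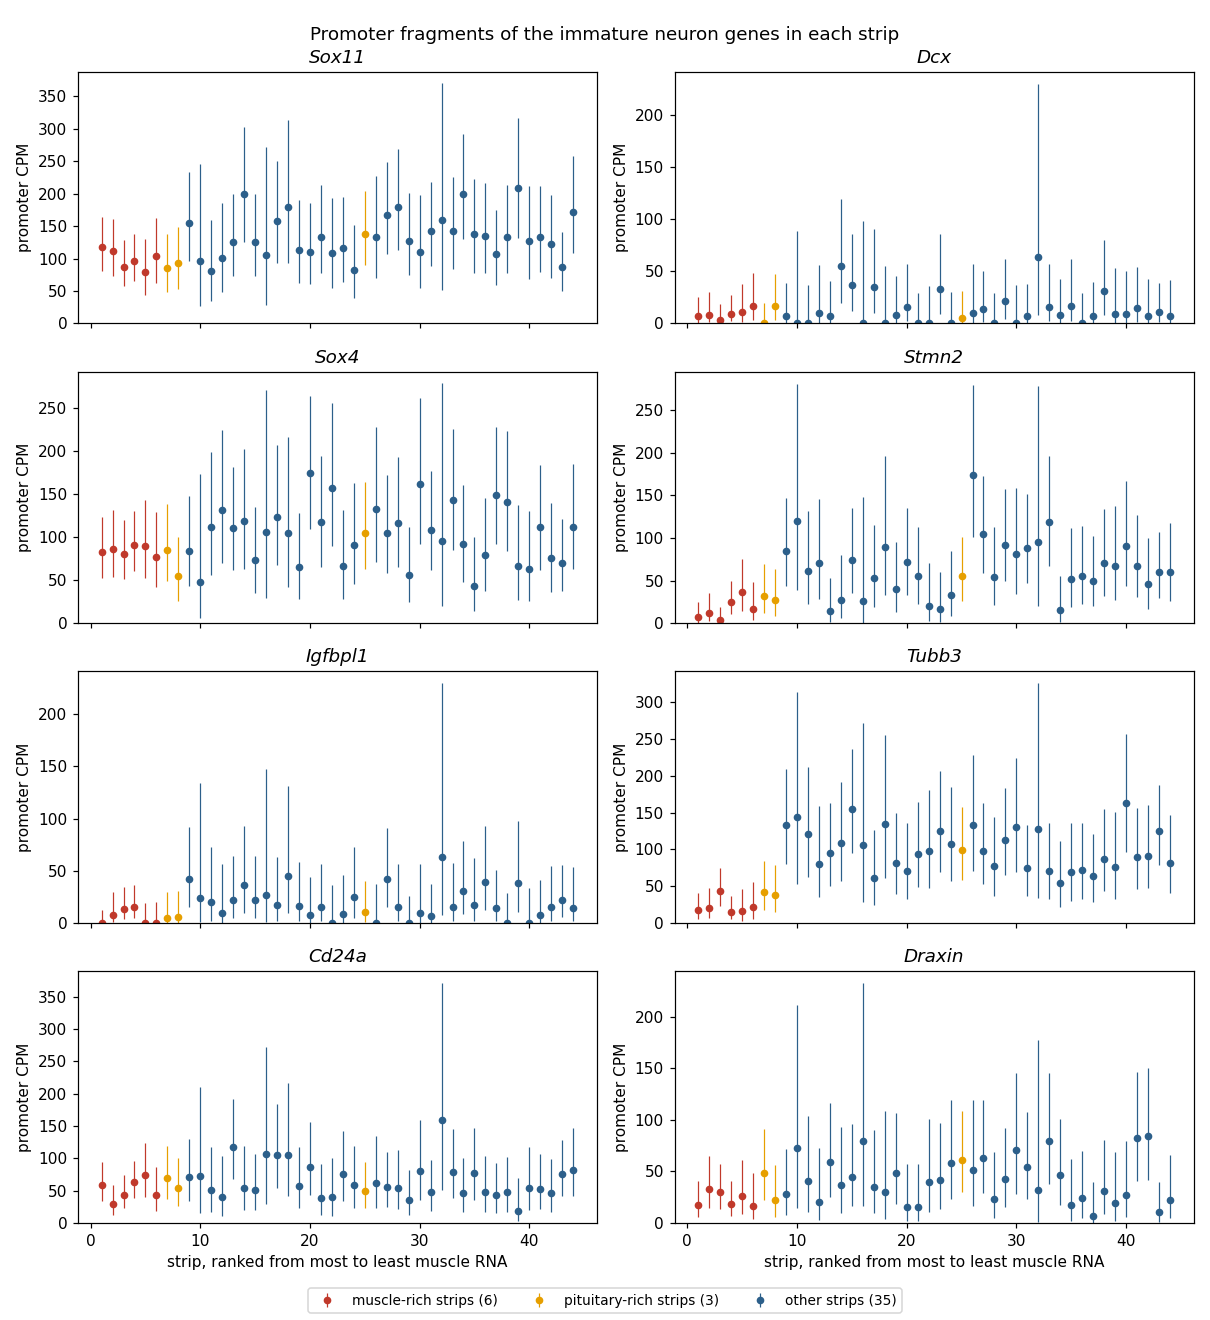
Promoter fragments in promoter CPM (linear axis from 0) of each gene in each of 44 strips, ranked as in the plot of RNA, with 95% Poisson intervals as bars. The Tubb3 promoter was at 15.6 to 43.7 in the muscle-rich strips and at 38.1 to 162.7 elsewhere, whereas the Sox4 promoter was at 76.8 to 90.6 within a range of 42.9 to 174.0.

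Set against one another, the promoter ratio of Tubb3 was 3.09 times that of Sox11 (2.10 to 4.56), 3.43 times that of Sox4 (2.31 to 5.10) and 3.42 times that of Cd24a (2.24 to 5.24). That of Stmn2 was 2.94 times that of Sox11 (1.87 to 4.63), 3.26 times that of Sox4 (2.06 to 5.17) and 3.26 times that of Cd24a (2.0 to 5.29). Between Stmn2 and Tubb3 it was 0.951 (0.554 to 1.63). Of the 28 pairs of genes, 12 had an interval off 1 for promoters and 14 for RNA, without adjustment for the number of pairs. Within a gene, the promoter ratio exceeded the RNA ratio 2.43 times for Tubb3 (1.70 to 3.47) and 2.13 times for Stmn2 (1.39 to 3.27), and was 0.770 of it for Sox4 (0.618 to 0.960). The window mattered for Stmn2. With 2 kb on each side its promoter ratio was 1.04 times its RNA ratio (0.799 to 1.35), 1.42 times the promoter ratio of Sox11 (1.05 to 1.91) and 0.616 of that of Tubb3 (0.431 to 0.880), while the promoter ratio of Tubb3 was 1.83 times its RNA ratio (1.39 to 2.40). With 1 kb the quotient for Sox11 was 0.956 (0.791 to 1.16), and for Dcx, Igfbpl1, Cd24a and Draxin its interval also held 1.

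**Figure D3:**
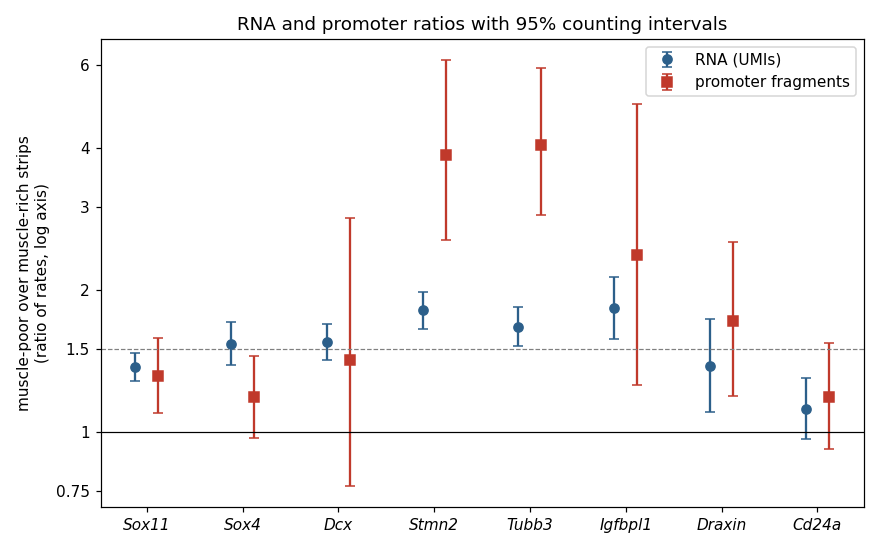
Ratio of muscle-poor to muscle-rich strips for RNA (circles) and promoter fragments (squares), on a log axis, with 95% counting intervals. The solid line marks 1 and the dashed line 1.5. Stmn2 and Tubb3 promoters, at 3.87 and 4.07 with the 1 kb window drawn, stand above their RNA ratios of 1.81 and 1.67, and with a 2 kb window Stmn2 would stand at 1.88.

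Within Tubb3 the contrast was greatest at the start. The peak over the Tubb3 start had 711 cut sites in muscle-poor and 51 in muscle-rich strips, a ratio of 4.49 (3.37 to 6.08) relative to all cut sites in peaks, while its 2 further peaks inside the gene had ratios of 1.85 and 1.91. The peak over the Stmn2 start had a ratio of 3.56 (2.54 to 5.12). A peak 1.08 kb into Stmn2 had a ratio of 2.31 (1.47 to 3.79), one at 1.93 kb had 0.815 (0.625 to 1.07), and one 52.5 kb downstream, at the end of the gene, had 3.49 (2.02 to 6.54). Outside the promoter window, fragments over the gene bodies, relative to all fragments, gave ratios of 1.22 for both Stmn2 (1.05 to 1.42) and Tubb3 (0.965 to 1.55). Those of Sox11, at 1.41 (1.03 to 1.97), Igfbpl1, at 1.42 (1.19 to 1.70), and Draxin, at 1.26 (1.11 to 1.44), were of similar size, that of Sox4 was 0.707 (0.513 to 0.987), and those of Dcx and Cd24a, at 1.11 and 1.12, had intervals that held 1.

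**Figure D4:**
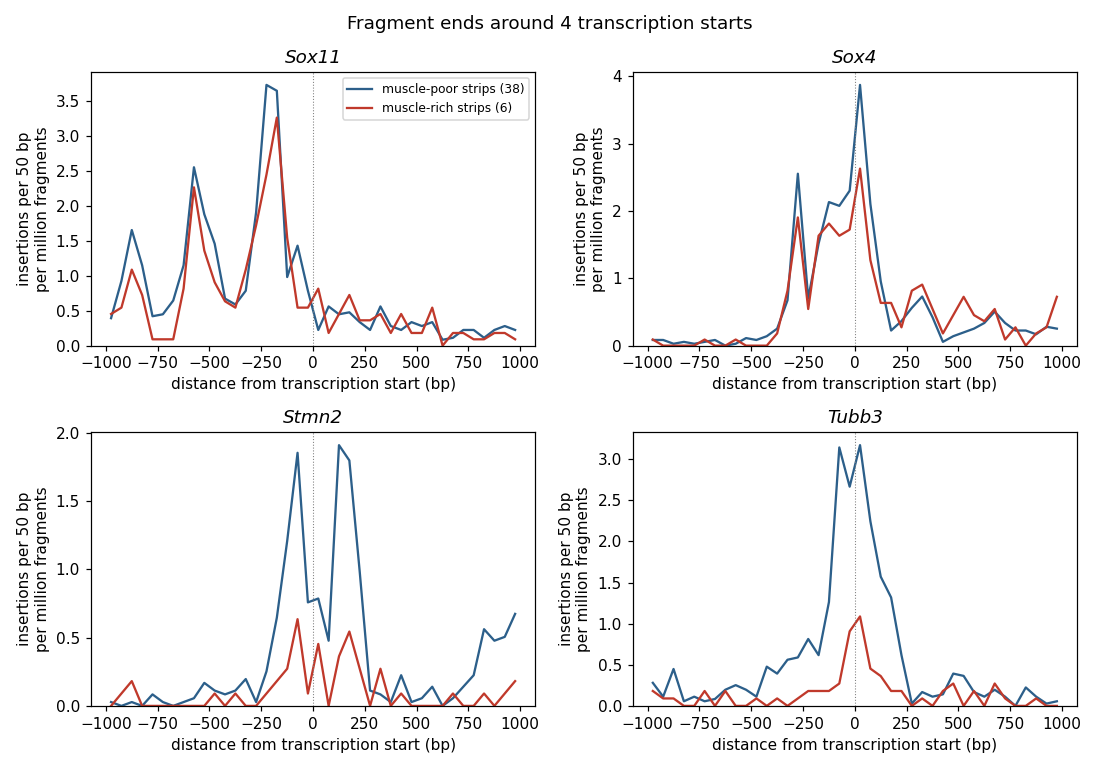
Fragment ends in 50 bp bins (insertions scaled to all fragments of a group, linear axes from 0) by distance from the transcription start, for Sox11, Sox4, Stmn2 and Tubb3 in the 38 muscle-poor and 6 muscle-rich strips. On this scale the muscle-poor to muscle-rich ratio of fragments over the window was 1.23 for Sox11 and 1.11 for Sox4, and 3.62 for Stmn2 and 3.81 for Tubb3, whose profiles are lower on both sides of the start.

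Igfbpl1 and Dcx, whose promoters gave few fragments, had other accessible sites within the gene. All 5 Igfbpl1 peaks at the start or inside the gene had ratios of 1.99 to 2.86, among them 2.57 (1.5 to 4.74) at the start and 2.86 (1.78 to 4.87) at 3.73 kb into the gene. In Dcx, a peak at chrX:143901888-143902944, 30.9 kb into the gene, had 148 cut sites in muscle-poor and 8 in muscle-rich strips, a ratio of 5.95 (2.94 to 14.1). Another Dcx peak, 48.1 kb into the gene, ran the other way, with 38 and 27 cut sites and a ratio of 0.453 (0.269 to 0.771). Inside Sox4 a peak 2.95 kb from the start was also lower, at 0.650 (0.463 to 0.921). Of 42 peaks at the 8 genes, 34 had at least 100 cut sites. Of these, 19 were at least 1.5-fold higher in muscle-poor strips, against 25.1% of 48254 such peaks, and 1 was 1.5-fold lower, against 20.3%.

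The spread of RNA over strips was measured by a dispersion index, the variance of the counts over that given by Poisson counting, which is about 1 where strips differ by counting error alone. The index was 8.09 for Sox11, 7.15 for Igfbpl1, 6.14 for Stmn2, 5.44 for Tubb3, 4.38 for Dcx, 3.91 for Sox4, 2.13 for Cd24a and 1.88 for Draxin. Thus 7 of 8 genes reached 2, against 11.5% of genes tested of any UMI count. The index grows with the number of UMIs, so it does not rank genes of unequal level. With counting error removed, Igfbpl1 had the largest coefficient of variation, 0.372, at percentile 88.0 of genes tested. The other 7 lay between 0.182 and 0.248, at percentiles 51.5 to 69.7, near the median gene at 0.177.

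Without the muscle-rich strips all indices but that of Cd24a, at 2.26, were lower. The index of Stmn2 was then 1.99, that of Tubb3 2.76 and that of Dcx 2.14, with coefficients of variation of 0.0755, 0.116 and 0.0963. That of Sox11 was 6.36 and that of Igfbpl1 5.86, with coefficients of 0.175 and 0.321. In all, 6 of 8 genes reached 2 over the muscle-poor strips, against 5.77% of genes tested. Once the pituitary-rich strips were left out as well it was 5, against 5.72%, with Dcx at 1.78 and Stmn2 at 1.19. Over 49 strips that share the first segment, which cross the others, 2 of 8 genes reached 2, Sox11 at 3.53 and Igfbpl1 at 4.55, against 1.09%.

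A single strip held the highest level of both Sox11 and Igfbpl1. It ranked 14 of 44 in muscle RNA and had 1474 CPM of Sox11 (1308 to 1656) and 532.7 of Igfbpl1 (434.8 to 646.1). The 285 Sox11 UMIs came from all 42 of its spots, with at most 20 in one spot, and the 103 Igfbpl1 UMIs from 35 of 42 spots, with at most 14. Its Sox11 promoter was at 200.3 promoter CPM, from 22 fragments, near the top of the range of 80.9 to 209.4 over the muscle-poor strips, of which it is one.

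At the promoters, fewer genes reached an index of 2. The promoter index was 3.26 for Stmn2 and 3.09 for Tubb3, and these 2 of the 6 promoters tested reached 2, against 4.22% of promoters. Their coefficients of variation, with counting error removed, were 0.572 and 0.494, at percentiles 98.5 and 96.5 of promoters tested. Sox11 had an index of 1.19 and a coefficient of 0.116, and Sox4 1.24 and 0.102. The median promoter was at 1.20 and 0.171, so these indices do not show spread beyond counting error. Draxin had 1.54 and 0.325, and Cd24a, at 1.03, did not exceed counting error either. Over the muscle-poor strips Stmn2 had 1.97 and Tubb3 1.23, and 0 of 6 promoters reached 2, against 0.87%. Median fragments per strip were 17 for Sox11, 10 for Tubb3, 7 for Stmn2 and 1 for Dcx, so that modest differences between strips could not be seen.

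Over the 38 muscle-poor strips the RNA levels were not all alike. Sox11 correlated with Igfbpl1 at Pearson's r = 0.70 (Spearman's rho 0.56), with Cd24a at 0.57 (0.52) and with Sox4 at 0.53 (0.46). Sox4 and Igfbpl1 correlated at 0.52 (0.50) and Dcx with Sox11 at 0.38 (0.39). Igfbpl1 correlated with Draxin at 0.37 (0.47), above its 0.26 (0.17) with Cd24a. Stmn2 and Tubb3 correlated with each other at 0.60 (0.58) and with Sox11 at -0.07 and -0.01. Over the 35 strips that were neither muscle-rich nor pituitary-rich, Stmn2 had r = -0.46 with Dcx and -0.37 with Sox11, and 0.38 with Tubb3. The value of -0.46 was the lowest of 28 pairs. The RNA index of Stmn2 over these strips was 1.19, so much of its variation there can be counting error. Without the strip with most Sox11, the Sox11 to Igfbpl1 value over the 37 remaining muscle-poor strips was 0.55. Over the 49 crossing strips the division was less clear. Sox11 and Igfbpl1 had r = 0.57 and Stmn2 and Tubb3 0.37, but Sox11 was at 0.18 with Stmn2 and at 0.29 with Tubb3, Dcx at 0.24 with Stmn2, and Sox4 at 0.39 with Tubb3, above its 0.27 with Sox11. These values share 1 library, its depth and its tissue make-up, and describe it without a test.

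**Figure D5:**
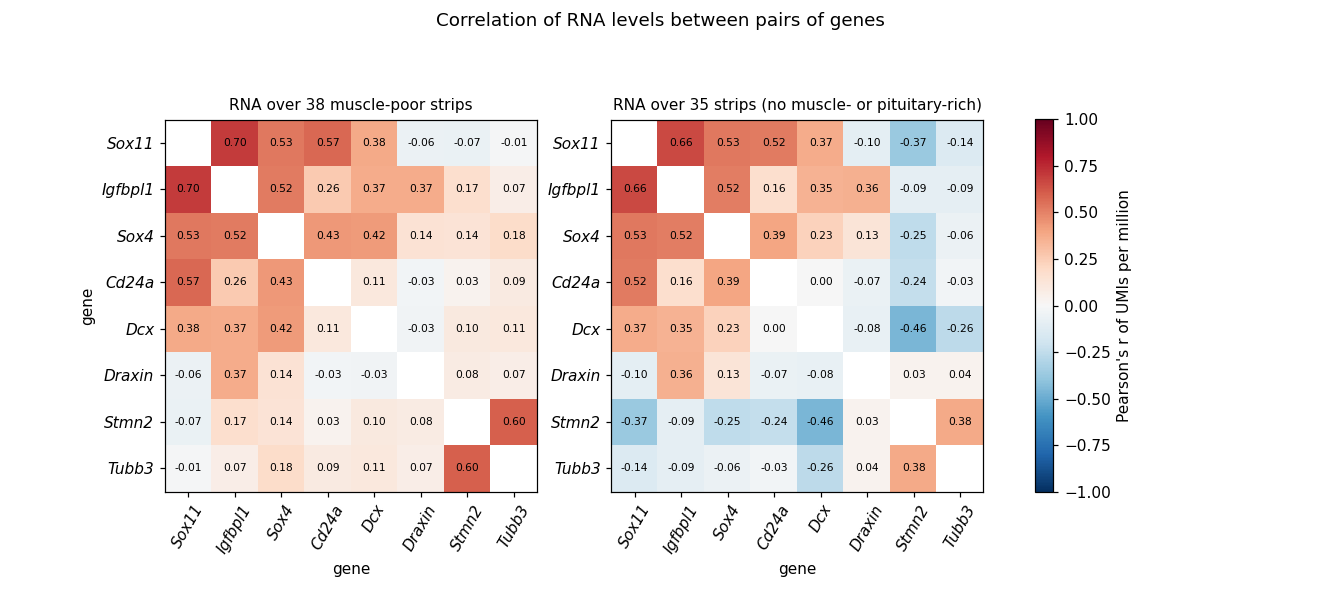
Pearson's r between the RNA levels (CPM) of each pair of genes, over the 38 muscle-poor strips (left) and over 35 strips without the muscle-rich and pituitary-rich ones (right). Sox11, Igfbpl1, Sox4 and Cd24a are positive with each other, and Stmn2 pairs with Tubb3 at 0.60 and 0.38. Igfbpl1 is at 0.26 and 0.16 with Cd24a and higher, at 0.37 and 0.36, with Draxin. On the right Stmn2 is at -0.46 with Dcx, the lowest of 28 pairs, and its dispersion index there was 1.19, near counting error.

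Over all strips the relation of RNA to accessibility was closest for Stmn2 and Tubb3. Once muscle-rich and pituitary-rich strips were left out, it could not be judged for either gene. The RNA index of Stmn2 was then 1.19 and the promoter index of Tubb3 0.93, both near counting error. Over 44 strips the level of RNA and of promoter fragments had r = 0.53 for Stmn2 (rho 0.50) and 0.50 for Tubb3 (0.39), where the median over 9790 genes was 0.03. Sox11 had 0.36 (rho 0.20), Igfbpl1 0.35 (0.35), Sox4 0.23 (0.28), Dcx 0.10 (0.11), Draxin 0.07 (0.01) and Cd24a -0.05 (0.00). For the sums over the 8 genes r was 0.69 (rho 0.56). Over the muscle-poor strips the values were 0.35 for Stmn2, 0.16 for Tubb3, 0.26 for Sox11, 0.25 for Igfbpl1 and 0.43 for the sums, below those over all 44 strips. Over the 35 strips that were neither muscle-rich nor pituitary-rich they were 0.27 for Stmn2, -0.05 for Tubb3, 0.23 for Sox11, 0.19 for Igfbpl1 and 0.25 for the sums. Over muscle-poor strips without the one with most Sox11, Sox11 was at 0.09.

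The muscle-poor strips were also ordered by the RNA of each gene, which fixes the RNA difference, so that only the promoter values are given. In the 12 strips with most Stmn2 RNA its promoter had 1.59 times the accessibility (1.15 to 2.22) of the 12 with least. The same contrast gave 2.04 (1.05 to 4.07) for Igfbpl1, from 26 and 16 fragments. For both genes the 12 strips with least RNA included all 3 pituitary-rich strips, so these contrasts partly set pituitary-rich strips against others. Values without those strips were not computed. It gave 1.27 (0.992 to 1.61) for Sox4, 1.19 (0.931 to 1.53) for Tubb3 and 1.07 (0.878 to 1.31) for Sox11. For Cd24a it was 1.01 (0.731 to 1.38), for Draxin 1.03 (0.726 to 1.47) and for Dcx 1.41 (0.711 to 2.85), from 23 and 16 fragments.

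Genes with patterns most like the 8, by r of log2(CPM + 10) over 44 strips among 7879 genes, are named next. The summed level was most like Tmsb10, encoding an actin-binding thymosin, at 0.90, the adhesion molecule gene Ncam1 at 0.88 and the tubulin gene Tubb2b at 0.87. Stmn2 was most like Tmsb10 at 0.90, Uchl1, encoding a neuronal deubiquitinating enzyme, at 0.89, and Tuba1a at 0.88, and Tubb3 like Uchl1 at 0.83. Dcx was most like Stmn4 at 0.79 and Sox4 like Ncam1 at 0.75. Sox11 was most like 3 transcription factor genes, Bcl11a at 0.67, Myt1l at 0.65 and Pou3f1 at 0.65, and Igfbpl1 like Myt1l at 0.66. The best matches of Cd24a (Ldb2, 0.55) and Draxin (Usp21, 0.54) were weaker. Over the 38 muscle-poor strips, chosen after seeing the data, the best matches were Tmsb10 for the sum at 0.70 and for Stmn2 at 0.74, Uchl1 for Tubb3 at 0.70 and Bcl11a for Sox11 at 0.68. They then were Nt5c3 for Dcx at 0.65, in place of Stmn4, and Pou3f1 for both Sox4 at 0.64 and Igfbpl1 at 0.62, in place of Ncam1 and Myt1l. Ldb2 (0.57) and Usp21 (0.60) were again highest for Cd24a and Draxin, but the 38 strips are part of the 44, so a repeat is not independent. Each match is the highest of 7879 values, and how high such a value would be for unrelated genes was not tested. The promoter ratios of these genes differed as well, with 3.22 for Uchl1, 3.63 for Myt1l and 2.36 for Tubb2b against 0.852 for Bcl11a and 1.08 for Tmsb10.

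Close relatives of the 8 genes were unequal at their promoters too. Among stathmin genes, Stmn3 and Stmn4 had RNA ratios of 1.76 and 1.84 and promoter ratios of 2.30 (1.56 to 3.50) and 3.18 (2.18 to 4.80), whereas Stmn1, which dividing cells also express, had 1.47 and 1.02 (0.844 to 1.24). Among beta-tubulin genes, Tubb2b had an RNA ratio of 2.04 and a promoter ratio of 2.36 (1.90 to 2.96), Tubb5 1.47 and 0.967 (0.785 to 1.20), and Tubb6 was lower in muscle-poor strips in RNA, 0.391 (0.304 to 0.504), and at its promoter, 0.383 (0.293 to 0.501). Sox12, the remaining SoxC gene, had an RNA ratio of 1.59 (1.37 to 1.86) and a promoter ratio of 0.845 (0.720 to 0.994). The doublecortin relative Dclk1 had 1.31 and 1.27.

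Other genes of the neuronal programme were read from lists. The shares over all features, given above, were 6.98% higher and 8.95% lower in RNA, and 11.5% higher and 10.4% lower at promoters. Of 22 neurite and cytoskeleton genes, 7 were at least 1.5-fold higher in muscle-poor strips in RNA and none lower, with a median ratio of 1.47, and 13 of 22 promoters were higher, with a median of 1.57. Its members with most UMIs, Tuba1a and Tubb2b, had RNA ratios of 1.66 and 2.04. Of 10 tested proneural and neuronal fate transcription factors, 5 were higher in RNA and none lower, and of 10 promoters 3 were higher and 1 lower. Its most abundant genes, Myt1l at 1.23 (1.14 to 1.32) and Ebf1 at 0.741 (0.678 to 0.810), were not among the 5. Of 15 mature neuron genes 2 were higher in RNA, with a median of 1.32 against 1.03 for all genes, and 13 of 16 promoters were higher, with a median of 2.16 against 1.0. The glutamate receptor gene Grin2b had an RNA ratio of 1.32 and a promoter ratio of 2.65, and the synaptic vesicle gene Syt1 1.32 and 2.50.

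Of 20 guidance and growth factor partners, none was higher and 4 were lower in RNA, against the same shares of 6.98% and 8.95%, with a median of 1.13, and the receptor genes Dcc and Robo1 had 1.26 and 1.23. At promoters 6 of 19 were higher and none lower. Of 12 radial glia genes, 2 were higher and 2 lower, with a median of 1.03, and of 11 promoters 3 were higher and 3 lower. Fabp7, a fatty acid binding protein of radial glia, was at 1.85 (1.59 to 2.18) and Ptprz1 at 1.30. All 10 tested muscle genes were lower by construction of the groups. All 6 tested epithelial genes and 7 of 8 connective tissue genes were lower too. Those with most UMIs were Wfdc2 at 0.123 and Krt18 at 0.165, and Col1a1 at 0.316 and Col1a2 at 0.338. Of the 4 tested pituitary genes 2 were higher, Chga at 1.75 (1.33 to 2.35) and Cga at 1.68, with an interval that held 1 (0.994 to 3.0). Pomc and Gh had 1.27 and 1.48. Without the 3 pituitary-rich strips, Pomc was at 0.548 (0.442 to 0.684), Gh at 0.591 (0.452 to 0.780) and Cga at 0.983 (0.565 to 1.81), whereas Chga was at 1.72 (1.30 to 2.31). The list then was at 111.4 to 211.6 CPM against 116.1 to 366.4 in muscle-rich strips. No erythroid (5 tested), endothelial (7) or microglial (4) gene passed 1.5-fold in RNA. Hba-a1 was at 0.928, Flt1 at 0.947 and C1qb at 0.846, and Hba-a1 and Hba-a2 are near-identical copies whose reads can be split.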

How the data were processed

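RNA and chromatin accessibility were measured by SPARC-seq in brain tissue of 1 genotype. Per the file headers, the authors processed the fragment file with cellranger-arc 2.0.1, and the submitters' notes name Seurat 4.0 and mm10. The deposited matrix holds raw counts, UMIs per gene and cut sites per peak, and the deposited fragment file holds the count of read pairs behind each collapsed fragment. Neither was normalised.

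The spot filter asked for 500 to 6000 genes and no more than 20% mitochondrial UMIs. UMIs were divided by all UMIs, and fragments within 1 kb of a start by the sum over all promoter windows. Starts were the upstream end of the start interval the matrix lists for each gene, with the strand of GENCODE M21, and exon lengths from the same annotation. The 6 strips with the largest share of muscle RNA formed one group. Levels have exact Poisson intervals, ratios conditional binomial ones, and quotients of ratios log-scale Wald ones. For cut sites the binomial intervals are too narrow, as both ends of a fragment can count. Genes with at least 100 counts were called at 1.5-fold or at a dispersion index of 2. The genes named are the 8, the 3 most similar genes with at least 200 UMIs (the best matches are reported), and the 2 genes of a list with most UMIs. Single relatives and peaks were picked after their values were seen. The 8 genes and all lists were chosen with earlier results of these data known. Steps were tested on simulated counts that varied by counting error alone around set levels, so wider spread between strips was not covered. Python 3.11.15, numpy 2.4.6, scipy 1.17.1 and pandas 2.3.3 were used. Depth was 62704 to 305704 UMIs and 31483 to 320177 promoter fragments per strip. Alternatives covered spot filters, totals, windows, strips and minimums. Leaving out the pituitary-rich strips, defined by at least 1000 CPM of pituitary genes, the window at the annotated start of Cd24a, and the contrast of strips with most and least RNA were added after seeing the data.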

Additional observations from a re-analysis of the deposited data

Results flagged for a closer look

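Barcodes outside the count matrix carried promoter fragments of the 8 genes. The 507 barcodes present in the fragment file but not in the matrix held 5833396 fragments. Promoter fragments of the 8 genes numbered 187, among 510491 of all genes. They were drawn to attention because no comparison between strips used them. Counting all barcodes moved the summed promoter level from 467.3 to 459.1 promoter CPM. The level was 366.3 promoter CPM against 467.3 in the kept spots, a ratio of 0.784 (95% counting interval 0.673 to 0.909). Sox11 had 42 fragments, Sox4 41, Tubb3 34, Cd24a 27, Stmn2 18, Draxin 14 and Igfbpl1 9. Dcx had 2 (0.24 to 7.2), few to judge its level by. These barcodes have no RNA counts here, so neither their gene number nor their muscle RNA is known.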

How the results depend on the processing

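Over 64 results and 425 recomputed values no ratio of muscle-poor to muscle-rich strips crossed 1 (outside these values, Cd24a did at its annotated start, 0.970 in place of 1.19), 324 values stayed within the limits set (the counting interval, 1.5-fold for a count, 10% for an index, 0.1 for r) and 101 moved. Without the muscle-rich strips the summed RNA level of the 8 genes was 3586 CPM in place of 3370, and the summed promoter level 517.4 promoter CPM in place of 467.3. With 4 muscle-rich strips the RNA ratio of the sum was 1.41 in place of 1.54. The count of genes with an RNA index of 2 or more was 2 over strips of the first segment, in place of 7, and 5 without the muscle-rich and pituitary-rich strips. The count for promoters, over all 8, was 7 in place of 2 with insertions counted in place of fragments, since both ends of a fragment then count. The share of all promoters under that setting was not computed, so the 7 cannot be weighed. The count was 0 without the muscle-rich strips, without the muscle-rich and pituitary-rich strips, and over strips of the first segment. The r of summed RNA and summed promoter fragments was 0.43 without the muscle-rich strips and 0.25 without the pituitary-rich ones as well, in place of 0.69. For single genes r changed sign in 6 values of 4 genes, namely Tubb3, from 0.50 to -0.05, and Dcx, from 0.10 to -0.02, without the muscle-rich and pituitary-rich strips, Cd24a, from -0.05 to 0.08, with at least 2000 UMIs per spot, and Draxin, from 0.07 to -0.20 with a window of 500 bp and to -0.02 without the muscle-rich strips, with -0.01 when the pituitary-rich ones were left out as well. The cause was not tested. The promoter ratio of Tubb3 stayed between 3.06 and 4.35. That of Stmn2 stayed between 1.88 and 4.80, the lowest with a window of 2 kb, which also takes in a peak 1.08 kb into the gene, with a ratio of 2.31, and part of one at 1.93 kb, with 0.815. The promoter ratio of Stmn2 over its RNA ratio was then 1.04 in place of 2.13. The genes of the lists past 1.5-fold in RNA numbered 47 of 123, and 42 to 50 with other minimums. Of the 47, 18 were higher and 29 lower, 10 of the latter being muscle genes, lower by construction of the groups. Without that list it was 15.9% higher and 16.8% lower, against 6.98% and 8.95% of all genes. No paired analysis was possible because there is 1 library per assay. Depth limits promoters most, with a median of 1 to 17 fragments per gene and strip. The lack of a replicate library or a wild-type library limits every comparison to these libraries.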
